A study of Mus musculus with 15 samples.

Results

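Heat shock chaperones were followed in single-cell transcriptomes of whole hearts from E14.5 mouse embryos, by cell class, by library, by Adamts19 genotype and by knockout allele. The 10 genes are a list of names out of the 16809 in the deposited table, drawn up by no threshold on measured values, although earlier results of these data were known. The 6 inducible members were Hspa1a, Hspa1b, Dnajb1, Hsph1, Hspb1 and Hsp90aa1, and the 4 constitutive members were Hspa8, Hspd1, Hspe1 and Hspb8. All 10 passed the low-count filter in every comparison below.

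Chaperones bind unfolded or partly folded proteins and help them reach or regain their native shape. Under heat or other protein-damaging stress, the transcription factor HSF1 binds repeats of a short GAA-type unit, called heat shock elements, and switches on the inducible members within minutes. Constitutive members do the same work in unstressed cells, and heart muscle, with its dense contractile and mitochondrial machinery, relies on several of them. Taking a tissue apart into single cells is itself known to switch on heat shock and immediate early genes.

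The method was Drop-seq, in which droplets pair each cell with a bead whose barcoded primers take up its polyadenylated RNA, and it gave 15 libraries, all from the C57BL6/N strain. The homozygous Adamts19 knockout (KO) had 8 libraries. KO replicates 5 to 8, all of litter 7, carried the allele labelled tm4b. KO replicates 1 to 4 carried tm4a, and of these replicate 1 belonged to litter 5 and the others to litter 6. The wild type (WT) had 7 libraries. Litter 1 gave WT replicates 1 and 2, litter 2 gave replicates 3 and 4, litter 3 gave replicate 5 and litter 4 gave replicates 6 and 7. No litter held both genotypes or both alleles, so litter cannot be told apart from either. All 8 KO libraries were sequenced on 1 flow cell that also held WT replicate 5, per the labels, and 6 WT libraries were run elsewhere. Which stretch of Adamts19 each allele removes was not given in the sources used here, nor was the number of embryos per library, and p-values measure the spread between libraries.

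Libraries held 5477109 to 11340443 UMIs, with a median of 1328 to 2089 UMIs per kept cell, and 50775 of 55152 barcodes were kept, 28394 KO and 22381 WT. WT replicates 3 and 4 stood apart by a median mitochondrially encoded share of 4.69% and 4.93% of UMIs, against 1.56% to 3.31% in the other libraries. The targeted gene Adamts19 had 6.61 ± 1.28 CPM (counts per 1000000 UMIs) in KO and 29.4 ± 12.4 CPM in WT libraries (mean ± SD, n = 8 and 7), a log2 fold change of -2.17 (SE 0.21, edgeR adjusted p = 3.83e-05). Clusters, made without the 10 members, were named by their markers. They gave 21478 cardiomyocyte-like, 6152 fibroblast-like, 5555 endocardial-like and 5172 valve interstitial-like cells, the 4 classes tested here, besides 8 smaller named classes. Among 55053 distinct barcodes, 87 occurred in more than 1 library.

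Promoter stretches are shown first, since they carry the letters that HSF1 reads. They are those of Hspb8 and Hsph1, which passed between KO and WT below, of the HSP70 pair, and of Hspb1 and Hspe1, which passed between the alleles. RefSeq promoter windows on GRCm38.p6, running from 250 bases before to 50 bases after a gene's start, were found for 8 of the 10 members, and none was used for Hspa8 and Hsp90aa1. The motif searched was GAANNTTC or TTCNNGAA, which are both palindromes and so read the same on either strand. A longer form of 3 units, GAANNTTCNNGAA or TTCNNGAANNTTC, contains the shorter ones. The shorter motif occurred in 4940 of 32817 windows of all genes (15.1%) and the longer one in 198 (0.603%). The stretches are the 150 bases before the start, 5′ to 3′ on the gene's strand, with matches in capitals, at chr5:116422865-116423014 (minus strand) for Hspb8, chr17:34972157-34972306 (minus) for Hspa1a, chr17:34959239-34959388 (minus) for Hspa1b, chr5:149636337-149636486 (minus) for Hsph1, chr5:135887769-135887918 (plus) for Hspb1 and chr1:55087998-55088147 (plus) for Hspe1.
Hspb8: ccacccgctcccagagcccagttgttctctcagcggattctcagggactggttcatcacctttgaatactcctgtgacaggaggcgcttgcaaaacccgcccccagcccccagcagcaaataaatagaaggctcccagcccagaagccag
Hspa1a: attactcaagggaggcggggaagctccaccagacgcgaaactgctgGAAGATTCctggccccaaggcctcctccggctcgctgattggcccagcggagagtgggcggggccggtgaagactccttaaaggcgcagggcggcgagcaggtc
Hspa1b: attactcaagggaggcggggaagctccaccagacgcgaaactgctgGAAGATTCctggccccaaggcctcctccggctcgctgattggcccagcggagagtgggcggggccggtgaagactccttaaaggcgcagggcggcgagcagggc
Hsph1: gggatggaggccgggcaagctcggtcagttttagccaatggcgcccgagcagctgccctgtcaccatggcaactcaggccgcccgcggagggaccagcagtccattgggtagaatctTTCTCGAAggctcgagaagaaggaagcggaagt
Hspb1: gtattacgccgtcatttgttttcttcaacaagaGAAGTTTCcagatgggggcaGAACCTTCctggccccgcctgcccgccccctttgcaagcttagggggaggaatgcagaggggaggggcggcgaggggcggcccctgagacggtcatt
Hspe1: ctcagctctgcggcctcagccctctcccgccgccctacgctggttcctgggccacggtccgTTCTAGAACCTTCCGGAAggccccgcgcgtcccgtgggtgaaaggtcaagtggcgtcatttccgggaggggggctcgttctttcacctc
Hspa1a and Hspa1b, which encode the inducible HSP70 proteins, lie 9951 bases apart on chromosome 17 and had 296 of 300 window bases in common, with 1 match each, 104 bases before the start. Hspb1 had 2 matches, 117 and 97 bases before the start. Hspe1 had 3 overlapping matches that form 2 of the longer motif. Its window shares 285 bases with the second window of Hspd1, which lies head to head with it on chromosome 1, so those matches are 1 stretch of DNA. Hsph1 had 1 match before the start and a longer motif after it. Hspb8 had 0 matches in the stretch shown and 1 just after the start, and both windows of Dnajb1 had 0. The letters describe these windows only and say nothing of binding in these hearts.

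The members differed widely by cell class (plot of levels by class). Levels are CPM of the summed UMIs of a class in a library, given as mean ± SD over libraries, and class was not tested against class because the classes come from clustering. Levels are compared here within a gene only. The HSP70 gene Hspa1a was highest in endocardial-like cells, at 747 ± 613 CPM (n = 15), followed by 336 ± 260 in valve endothelial-like, 318 ± 338 in valve interstitial-like and 244 ± 160 in macrophage-like cells. It had 66.5 ± 50.7 CPM in cardiomyocyte-like cells. Its endocardial level exceeded the valve endothelial one in 10 of 15 libraries, and the mean gap was smaller than its SD over libraries. Hspa1b followed the same order at its top, with 323 ± 321 CPM in endocardial-like and 105 ± 91.8 CPM in valve endothelial-like cells. Hsph1, the HSP110 nucleotide exchange factor that recharges HSP70, had 260 ± 140 CPM in endocardial-like, 182 ± 114 in valve endothelial-like and 166 ± 140 in valve interstitial-like cells.

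Dnajb1, the HSP40 partner that hands clients to HSP70, was highest in epicardial-like cells at 379 ± 223 CPM, with 250 ± 175 in valve endothelial-like and 247 ± 143 in endocardial-like cells. The small heat shock proteins among the members were high in cardiomyocyte-like cells. Hspb1, a small heat shock protein that guards actin filaments, had 212 ± 142 CPM in cardiomyocyte-like cells, against 17.8 CPM in fibroblast-like and 8.8 CPM in vascular endothelial-like cells. Next in its order came a platelet-rich class of few cells (164 ± 193 CPM), epicardial-like (112 ± 79.6) and valve endothelial-like cells (94.0 ± 98.9). Mural-like cells had 58.3 ± 39.6 CPM. Hspb8, a small heat shock protein that works with Bag3 in clearing damaged proteins of muscle, had 135 ± 31.2 CPM in cardiomyocyte-like and 11.7 ± 5.5 CPM in fibroblast-like cells. The platelet-rich class had 153 ± 87.1 CPM of it, and epicardial-like cells had 111 ± 42.1. Within the cardiomyocyte-like clusters Hspb8 ranged between 84.2 CPM in the cluster led by Myl1 and Nppa and 180 CPM in the cluster led by Kcne1 and Mb.

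The remaining constitutive members and Hsp90aa1 were spread more evenly. Hspd1, the mitochondrial chaperonin HSP60, had 766 ± 119 CPM in cardiomyocyte-like and 502 ± 97.8 CPM in fibroblast-like cells, and the first was above the second in 15 of 15 libraries. Its lid protein Hspe1 had 606 ± 110 CPM in fibroblast-like and 554 ± 76.3 CPM in cardiomyocyte-like cells. Hspa8, the constitutive HSP70 that folds new proteins and uncoats clathrin, had 1448 ± 386 CPM in vascular endothelial-like and 1351 ± 382 CPM in endocardial-like cells, within the SD of each other. Hsp90aa1, the inducible HSP90, had 684 ± 282 CPM in the neural class and 589 ± 181 CPM in epicardial-like cells. Of neighbours at the top of each gene's order, the first 2 for Hspd1 differed on average by more than the SD of that difference over libraries, and those of the other 9 members did not.

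**Figure D1:**
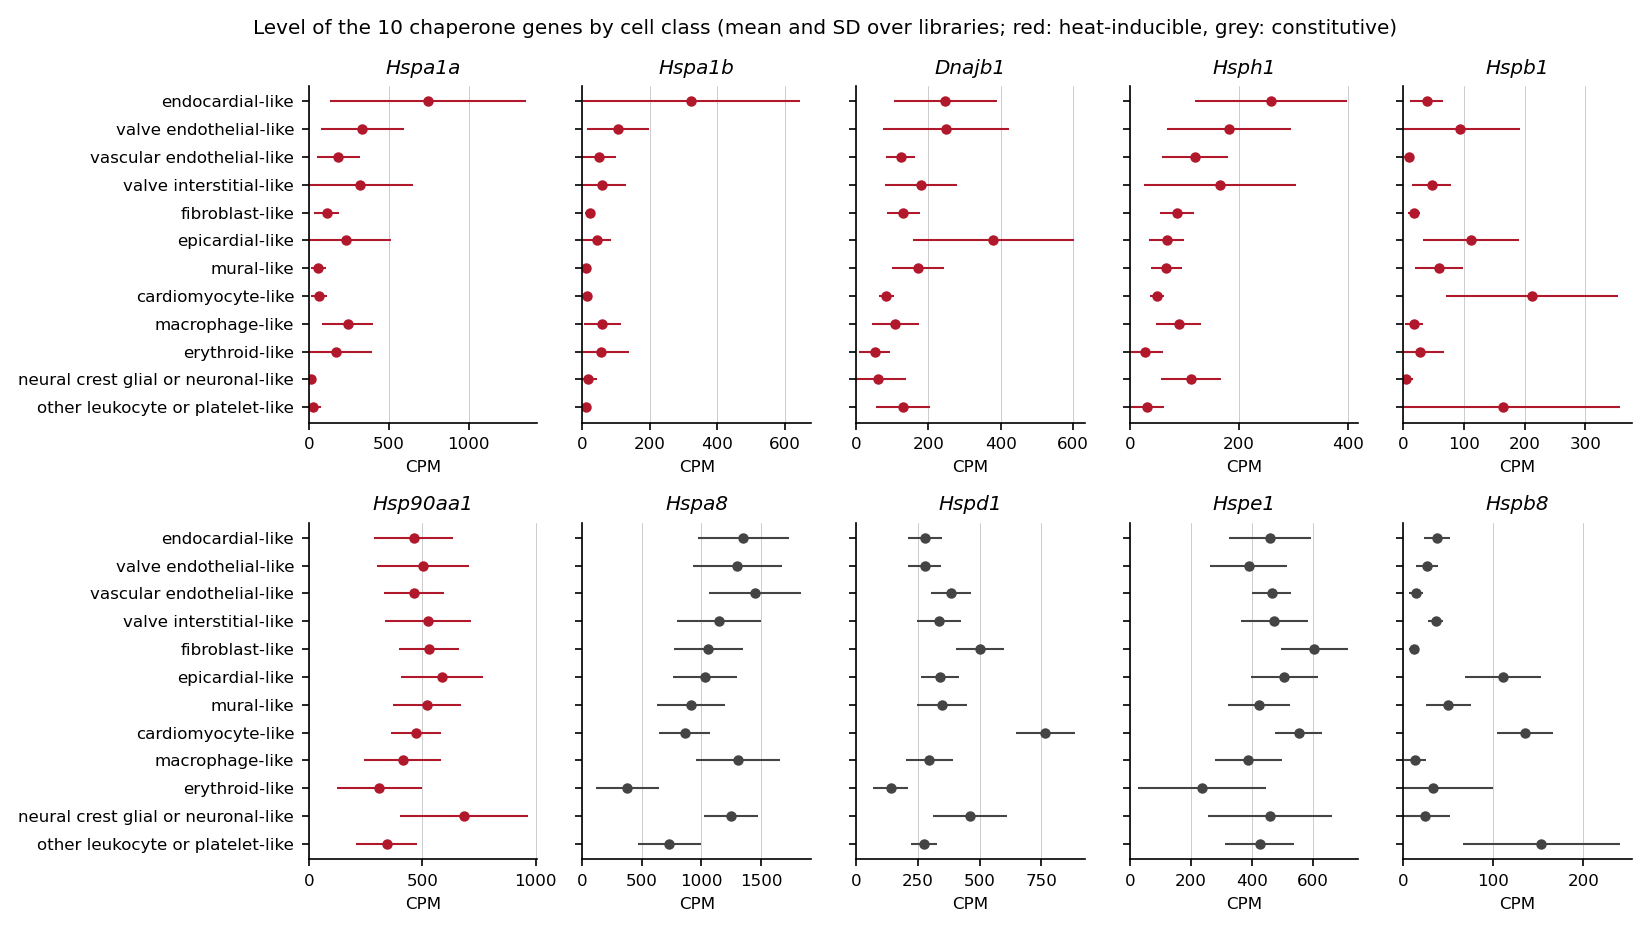
Level of each of the 10 members (horizontal axes, CPM, linear) in 12 named cell classes (vertical axes). Points are means over libraries and whiskers the SD, cut at 0, in red for inducible and grey for constitutive members. Hspa1a stands at 747 CPM in endocardial-like and 66.5 CPM in cardiomyocyte-like cells, while Hspb8 stands at 135 CPM in cardiomyocyte-like and 11.7 CPM in fibroblast-like cells.

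The genotype comparison asks what changes in the embryonic heart when Adamts19, a gene tied to valve disease in the series title, is lost. A sum over all cells cannot tell a change in level per cell from a change in the share of each class, so each class is given as well. With all kept cells summed, 1 member passed edgeR's quasi-likelihood test, Hspb8, where 28 of 13445 genes passed (0.208%). Hspb8 lay between 93.4 and 108.5 CPM in KO libraries, with a median of 102, and between 58.1 and 88.1 CPM in WT libraries, with a median of 65.0. The 2 groups did not overlap, where 0.446% of genes did not. It averaged 102 ± 5.79 CPM in KO and 69.5 ± 11.9 CPM in WT libraries (n = 8 and 7), a log2 fold change of 0.53 (SE 0.10, edgeR adjusted p = 0.0435). Leaving out 1 library at a time kept this call in 2 of 15 cases, those of WT replicates 1 and 3, with adjusted p between 0.00916 and 0.0947, and it was lost without any of the other 13 libraries. With counts summed per litter, over 3 KO and 4 WT litters, it was 0.57 (SE 0.14, edgeR adjusted p = 0.548).

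Hspb8 rose in cardiomyocyte-like cells too, the class where it was high. There 159 of 11275 genes passed (1.41%) and Hspb8 was the 1 member among them. It lay between 149 and 171 CPM in KO libraries, with a median of 161, and between 81.2 and 134 CPM in WT libraries, with a median of 98.9. No KO library reached down to the highest WT library, where 0.514% of genes did not overlap. The log2 fold change was 0.58 (SE 0.10, edgeR adjusted p = 0.0129), and the call held when any 1 of the 15 libraries was left out, with adjusted p between 0.00467 and 0.0299. With flow cell as a covariate, which leaves WT replicate 5 as the WT library beside the KO libraries, it was 0.39 (SE 0.21, edgeR adjusted p = 0.708). Libraries of a litter may not be independent, and with counts summed per litter it was 0.60 (SE 0.14, edgeR adjusted p = 0.239). Against WT, tm4b alone gave 0.52 (edgeR adjusted p = 0.0935) and tm4a alone 0.65 (edgeR adjusted p = 0.143), and the replicate block gave 0.62 (edgeR adjusted p = 0.113). WT replicate 5 had 123 CPM, the second highest WT value. In epicardial-like cells, where no test was run, Hspb8 averaged 139 ± 35.1 CPM in KO and 79.0 ± 21.1 CPM in WT libraries.

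The inducible HSP70 pair was higher on average in KO hearts, but did not pass the test, and WT libraries differed widely by litter (plot of inducible members by library). Over all kept cells Hspa1a lay between 108 and 396.9 CPM in KO libraries, with a median of 255, and between 15.1 and 271 CPM in WT libraries, with a median of 35.0. WT replicates 1 to 4, of litters 1 and 2, had 136, 271, 35.0 and 99.9 CPM, and WT replicates 5 to 7, of litters 3 and 4, had 29.5, 18.7 and 15.1 CPM. The log2 fold change was 1.53 (SE 0.49, edgeR adjusted p = 0.143). Hspa1b averaged 78.3 ± 42.8 CPM in KO and 23.9 ± 28.3 CPM in WT libraries, at a log2 fold change of 1.69 (SE 0.56, edgeR adjusted p = 0.150). The 3 lowest WT values of both genes were those of replicates 5 to 7. The near-identical genes can share reads where an aligner cannot place them. How they were placed was not given in the sources used here, and none of 351 words of 50 bases from the last 400 bases of either transcript occurs in the other. Among 951 such words from the last 1000 bases, 11.8% of those of Hspa1a and 23.8% of those of Hspa1b occur in the other gene.

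None of the other 7 members passed edgeR's test over all kept cells, and DESeq2 called Hsph1 beside Hspb8 (log2 0.75, DESeq2 adjusted p = 0.0052). Hsph1 averaged 114 ± 36.5 CPM in KO and 66.8 ± 19.9 CPM in WT libraries, and 5 of 8 KO libraries were above the highest WT library, at a log2 fold change of 0.75 (SE 0.18, edgeR adjusted p = 0.0607). Hspb1 ran the other way, with 97.4 ± 47.6 CPM in KO and 166 ± 102 CPM in WT libraries (log2 -0.82, SE 0.39, edgeR adjusted p = 0.316). Dnajb1 had a log2 fold change of 0.35, Hsp90aa1 of 0.25, Hspa8 of 0.16, Hspe1 of 0.16 and Hspd1 of 0.12, with edgeR adjusted p from 0.379 to 0.759. The median over the 10 members was 0.30, and 9 of 10 were above 0, against a median of -0.02 and 45.5% above 0 over all genes tested. Summed, the 10 members made 3522 ± 416 CPM in KO and 2910 ± 520 CPM in WT libraries.

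**Figure D2:**
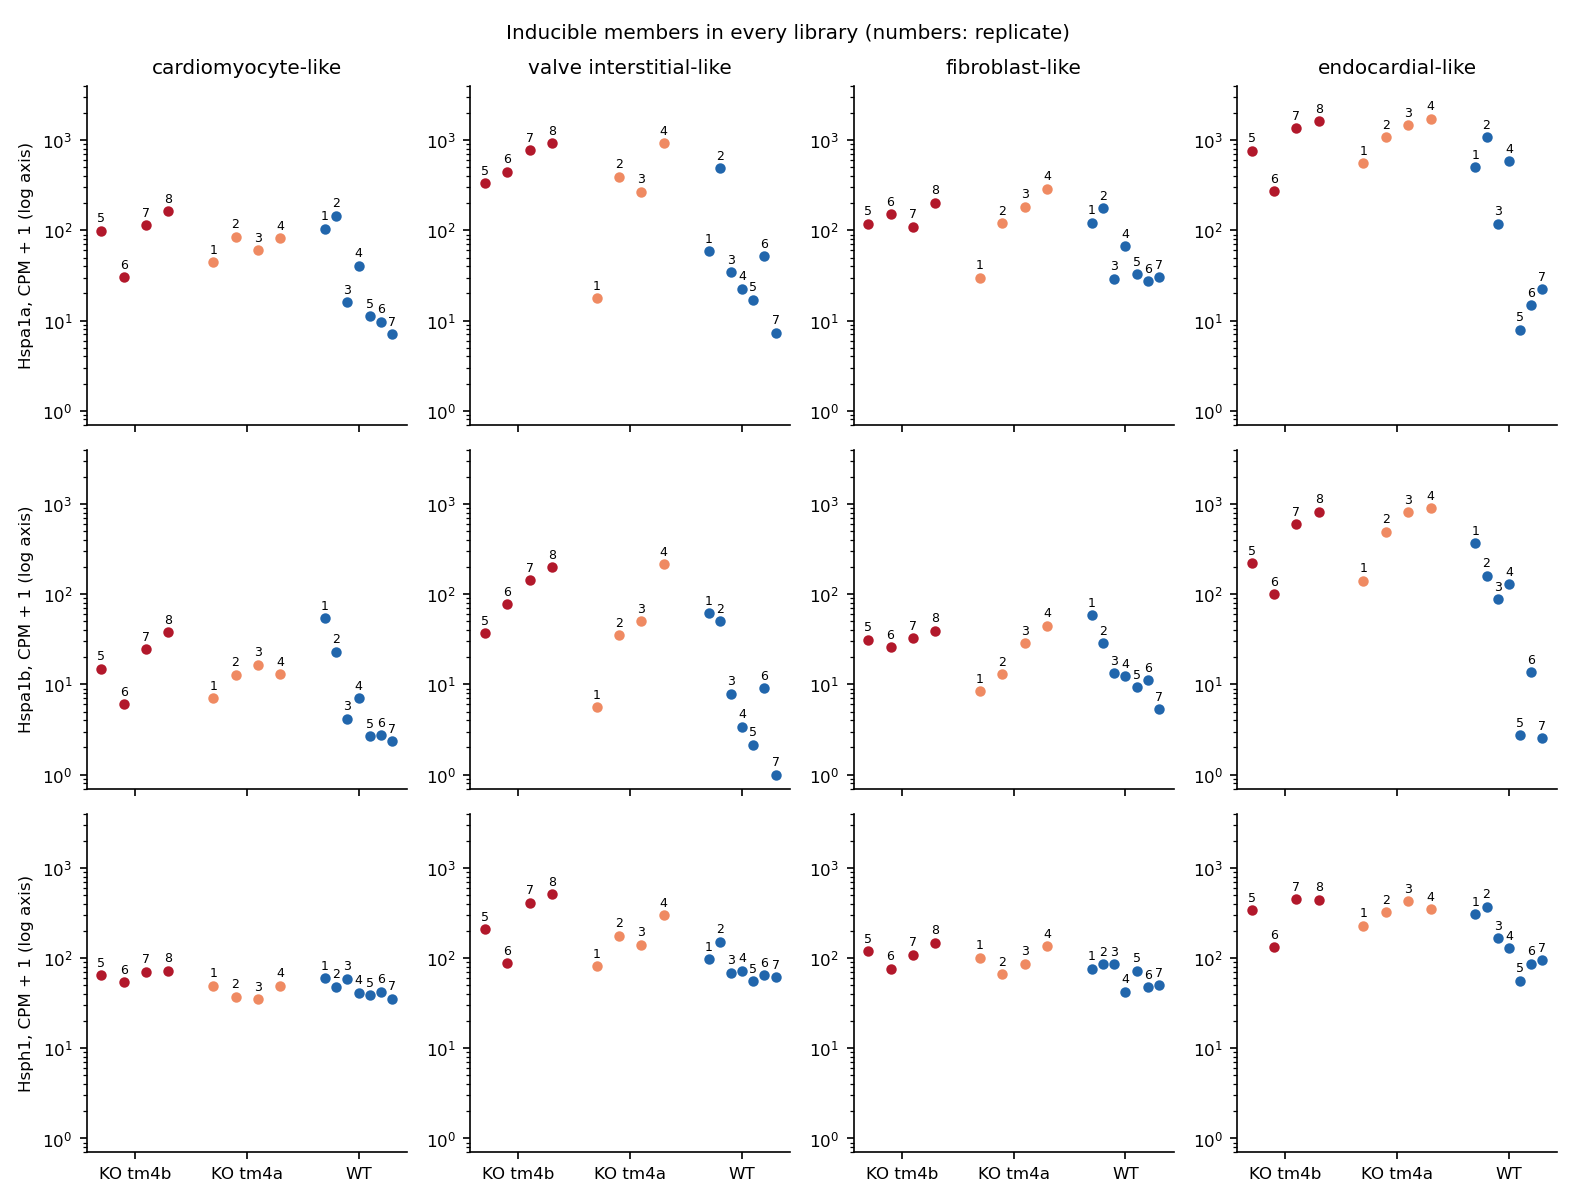
Levels of Hspa1a, Hspa1b and Hsph1 in each library (vertical axes, CPM + 1, log scale) in 4 cell classes; points are libraries labelled by replicate number, in the order KO tm4b, KO tm4a and WT from left to right. In endocardial-like cells the 8 KO libraries lie between 272 and 1733 CPM of Hspa1a, WT replicates 1 to 4 between 117 and 1087 and WT replicates 5 to 7 between 6.90 and 21.2.

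Hsph1 rose in KO valve interstitial-like cells, which had the highest Adamts19 level of the 4 classes tested. It was 1 member among the 15 of 8070 genes that passed there (0.186%). Hsph1 lay between 80.4 and 516.6 CPM in KO libraries, with a median of 193, and between 55.0 and 152 CPM in WT libraries, with a median of 68.0. The groups overlapped, and 5 of 8 KO libraries were above the highest WT library. The log2 fold change was 1.53 (SE 0.33, edgeR adjusted p = 0.0446). The call was kept when each of WT replicates 2 and 3 and KO replicates 1, 3 and 6 was left out, and was lost without any of the other 10 libraries, with adjusted p up to 0.136. It was also lost with counts summed per litter (log2 1.32, SE 0.31, edgeR adjusted p = 0.342), with flow cell as a covariate (2.08, SE 0.76, edgeR adjusted p = 0.469), with tm4a alone against WT (1.09, edgeR adjusted p = 0.285), with the replicate block (1.15, edgeR adjusted p = 0.196) and with at least 500 genes per cell (1.52, edgeR adjusted p = 0.0505). Hspa1a averaged 511 ± 332 CPM in KO and 96.7 ± 175 CPM in WT libraries, a log2 fold change of 2.35 (SE 0.64, edgeR adjusted p = 0.111). Of its WT values, replicate 2 had 491 CPM and the next highest 57.6. Leaving out 1 library at a time, Hspa1a was past the threshold in 1 of 15 cases, without WT replicate 2, the library farthest from the difference, where its log2 fold change was 4.03. KO replicate 1 had 16.7 CPM of Hspa1a, within the WT range, while the other 7 KO libraries had 268 to 933.5. Hspa1b had a log2 fold change of 2.20 (SE 0.62, edgeR adjusted p = 0.116) and Hsp90aa1 of 0.61 (SE 0.20, edgeR adjusted p = 0.167). All 10 members were above 0, with a median of 0.52, against -0.02 and 47.0% above 0 over all genes tested.

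In endocardial-like cells, where the pair was highest, none of the 10 members passed edgeR's test, at which 26 of 8379 genes did (0.31%). Of them 8 had an unadjusted p under 0.05 in edgeR, and DESeq2 called 1, Hspe1, higher in KO (log2 0.59, DESeq2 adjusted p = 0.0137). Hspa1a lay between 272 and 1733 CPM in KO libraries, with a median of 1221, and between 6.90 and 1087 CPM in WT libraries, with a median of 117. The WT values were 503, 1087, 117 and 583 CPM in replicates 1 to 4 and 6.90, 13.8 and 21.2 CPM in replicates 5 to 7. Every KO library was above WT replicates 5 to 7, and 4 of the 8 lay above the highest WT library. The log2 fold change was 1.73 (SE 0.63, edgeR adjusted p = 0.22). Hspa1b averaged 511 ± 324 CPM in KO and 109 ± 131 CPM in WT libraries (log2 2.24, SE 0.60, edgeR adjusted p = 0.0976).

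WT replicates 1 to 4, of litters 1 and 2, carried the higher Hspa1a levels of the WT group in endocardial-like cells and over all kept cells, and earlier results of these data were known when a setting without them was chosen. Values without them therefore describe how far the difference rests on those libraries, and their p-values are not given. The log2 fold change in endocardial-like cells was then 6.22 for Hspa1a (SE 0.54) and 6.23 for Hspa1b (SE 0.78), and over all kept cells it was 3.50 for Hspa1a (SE 0.40), with 3 WT libraries left. In those, WT replicates 5 to 7, endocardial-like cells held 4, 13 and 14 UMIs of Hspa1a and 1, 12 and 1 UMIs of Hspa1b. The WT side is thus near the floor there, and the size of these 2 endocardial ratios is poorly set. In endocardial-like cells Hsph1 was then at 2.03, Hspb1 at 1.63 and Hsp90aa1 at 0.78. With all 15 libraries and flow cell as a covariate, Hspa1a in endocardial-like cells was at 7.26 (SE 1.30). That estimate rests on WT replicate 5 and its 4 UMIs of Hspa1a.

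The mitochondrial partners Hspe1 and Hspd1 had smaller differences and smaller spreads in endocardial-like cells, and did not pass. Hspe1 lay between 375 and 792 CPM in KO libraries, with a median of 544, and between 287 and 453 CPM in WT libraries, with a median of 357, and 7 of 8 KO libraries were above the highest WT library. Its log2 fold change was 0.60 (SE 0.14, edgeR adjusted p = 0.0696). Hspd1 averaged 323 ± 61.2 CPM in KO and 229 ± 42.0 CPM in WT libraries, at a log2 fold change of 0.48 (edgeR adjusted p = 0.143). Hsp90aa1 had a log2 fold change of 0.69 (SE 0.19, edgeR adjusted p = 0.116), Hsph1 of 0.96 (SE 0.30, edgeR adjusted p = 0.157), Dnajb1 of 0.68 and Hspa8 of 0.38. The median over the members was 0.68 and 9 of 10 were above 0, against -0.01 and 47.6% over all genes tested.

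In fibroblast-like cells none of the members passed, at 3 of 8638 genes (0.0347%). Of them 2 had an unadjusted p under 0.05 in edgeR, and DESeq2 called 1, Hsph1, higher in KO (log2 0.67, DESeq2 adjusted p = 0.0458). Hspa1a averaged 150 ± 77.1 CPM in KO and 68.0 ± 58.2 CPM in WT libraries (log2 1.06, SE 0.38, edgeR adjusted p = 0.196), and Hsph1 105 ± 28.8 CPM in KO and 64.9 ± 18.6 CPM in WT libraries (log2 0.66, SE 0.18, edgeR adjusted p = 0.102). In cardiomyocyte-like cells Hspa1a averaged 83.7 ± 42.2 CPM in KO and 47.0 ± 55.5 CPM in WT libraries (log2 0.83, SE 0.51, edgeR adjusted p = 0.433). Hspb1 averaged 151 ± 75.1 CPM in KO and 281 ± 174 CPM in WT libraries there (log2 -0.95, SE 0.39, edgeR adjusted p = 0.216). Its KO values were 45.1, 68.1 and 83.2 CPM in replicates 1, 3 and 4 and 156 to 230 CPM in the other 5.

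**Figure D3:**
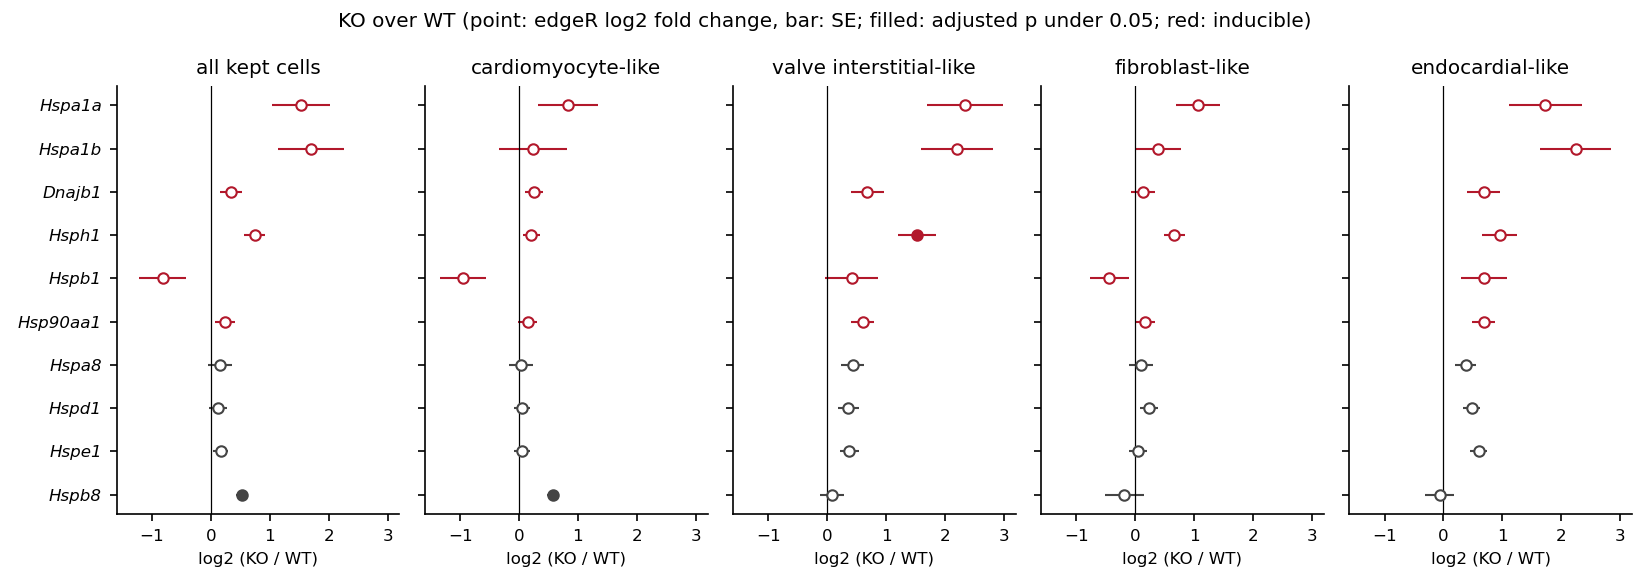
Log2 fold change of KO over WT (points, with SE as bars) of the 10 members in all kept cells and in 4 cell classes; filled points have an edgeR adjusted p under 0.05. Hspb8 is filled in all kept cells (0.53) and cardiomyocyte-like cells (0.58) and Hsph1 in valve interstitial-like cells (1.53), while the largest open point is Hspa1a in valve interstitial-like (2.35) and Hspb1 lies below 0 in cardiomyocyte-like cells (-0.95).

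Whether the genotype difference itself differed by class was tested in each library against its own cardiomyocyte-like cells, on log2(CPM + 5). The measure was the class level minus the cardiomyocyte level, compared between 8 KO and 7 WT libraries by a two-sided exact permutation test over 6435 assignments, with adjustment over 30 values (10 members, 3 classes). Of the 30, 15 passed. Genes outside the members were not put through this test, so the share that would pass over all genes is not known. For Hspa1b the endocardial level was above the cardiomyocyte level by 4.41 ± 0.85 in KO and 1.97 ± 1.51 in WT libraries, a difference of 2.44 (exact permutation p = 0.000777, adjusted p = 0.0233). For Hspa1a it was above by 3.60 ± 0.58 in KO and 1.82 ± 1.44 in WT libraries, a difference of 1.77 (exact permutation p = 0.00389, adjusted p = 0.0319). The other 6 endocardial differences that passed were Hspb1 at 1.504, Hspe1 at 0.50, Hsp90aa1 at 0.48, Hspd1 at 0.40, Hspa8 at 0.29 and Hspb8 at -0.70, the last being lower relative to cardiomyocyte-like cells in KO. In valve interstitial-like cells Hspa1b (1.63), Hsph1 (1.13), Hspb1 (1.09), Hspe1 (0.33) and Hspb8 (-0.49) passed, and Hspa1a did not (1.63, exact permutation adjusted p = 0.0621). Hspb1 was itself lower on average in KO cardiomyocyte-like cells (log2 -0.95), so its differences also hold that fall of the reference. In fibroblast-like cells Hsph1 (0.47) and Hspb8 (-0.68) passed. With a pseudocount of 1 CPM, Hspb8 did not pass in fibroblast-like cells (-0.71, exact permutation adjusted p = 0.113). Nor did it in valve interstitial-like cells (-0.50, exact permutation adjusted p = 0.0575). Its level in fibroblast-like cells was low, at 11.7 ± 5.5 CPM.

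These class differences rest on few libraries, and those of the HSP70 pair also on a low cardiomyocyte reference. It averaged 66.5 ± 50.7 CPM for Hspa1a and 14.3 ± 14.8 CPM for Hspa1b (n = 15). Leaving out 1 library at a time, between 0 and 18 of the 30 passed. The count was 0 with KO replicate 3, 4 or 8 left out. It was 2 without WT replicate 7, and 6 with KO replicate 2 omitted. It was 7 when WT replicate 5 or 6 or KO replicate 5 was dropped, and 9 when WT replicate 1 or KO replicate 7 was. Without WT replicates 1 to 4 the endocardial difference was 3.93 for Hspa1b and 3.15 for Hspa1a. On the means of each litter none passed, and the smallest exact permutation p found was 0.0571. With 35 assignments, that setting leaves little room for a small p. The differences were then 2.59 for Hspa1b and 2.08 for Hspa1a in endocardial-like cells.

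**Figure D4:**
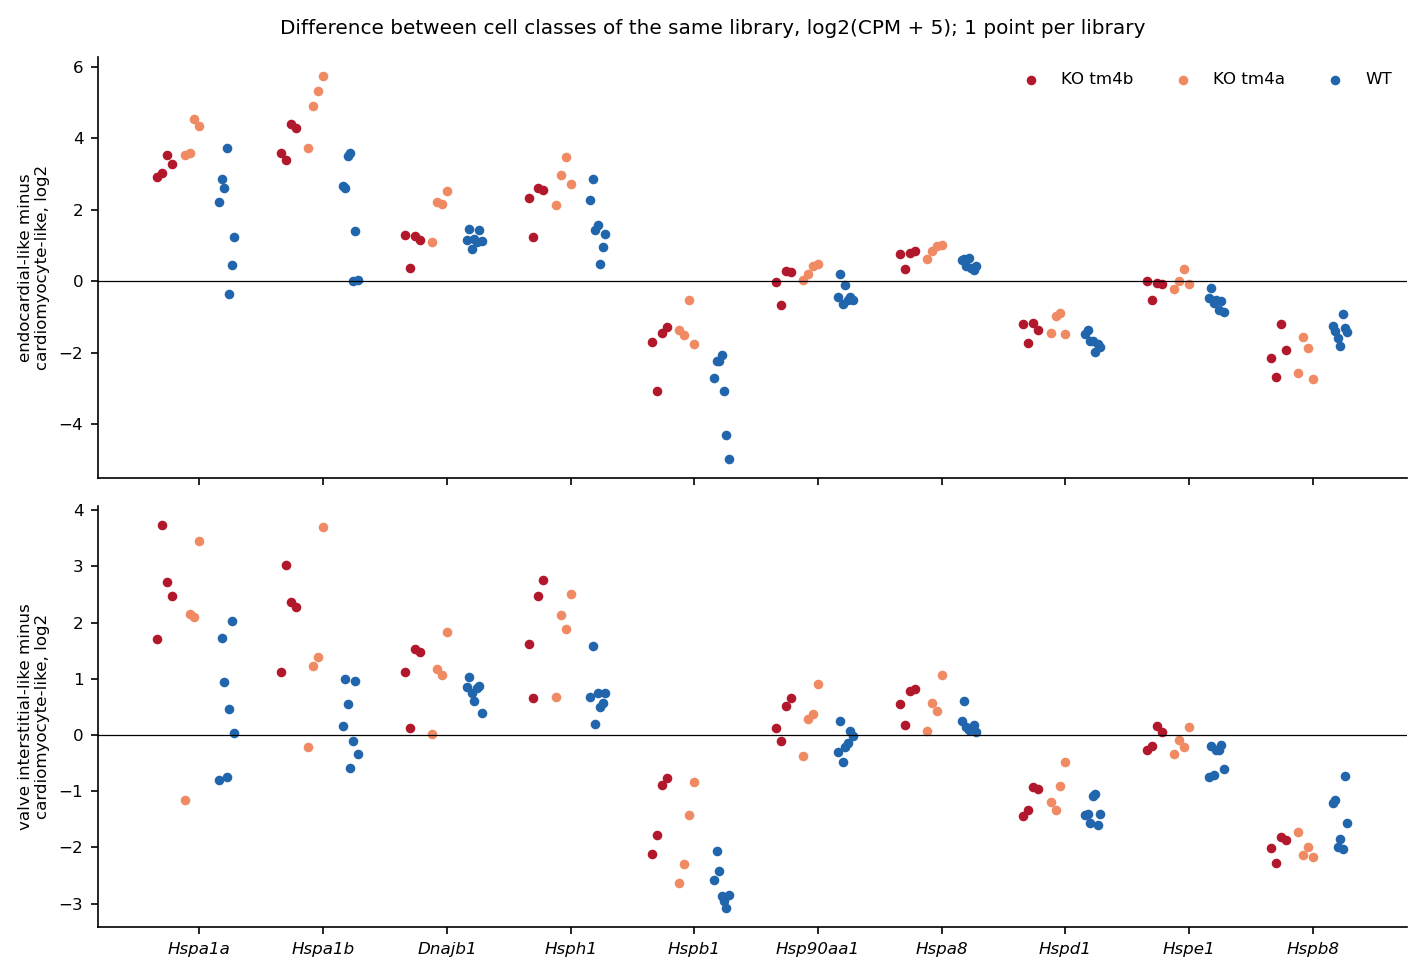
Level of each member in endocardial-like and in valve interstitial-like cells minus its level in cardiomyocyte-like cells of the same library (vertical axis, difference in log2(CPM + 5)), for KO and WT libraries from left to right. Hspa1b in endocardial-like cells averages 4.41 in KO and 1.97 in WT libraries, and Hspb8 lies below 0 in both groups.

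The weight of the inducible against the constitutive members was described per library as the mean log2(CPM + 5) of the 6 minus that of the 4, with no test. In endocardial-like cells it was -0.05 ± 0.55 in KO and -1.26 ± 1.22 in WT libraries, in valve interstitial-like cells -0.89 ± 0.99 in KO and -1.89 ± 0.81 in WT libraries, in fibroblast-like cells -1.57 ± 0.50 in KO and -1.87 ± 0.59 in WT libraries, and in cardiomyocyte-like cells -2.48 ± 0.47 in KO and -2.56 ± 0.71 in WT libraries. Over the 15 libraries, all kept cells together, the profiles of the inducible members lay at unequal distances from their mean. In log2 units (root mean square) Hsph1 lay at 0.29, Dnajb1 at 0.41, Hsp90aa1 at 0.53, Hspa1b at 0.85, Hspa1a at 0.88 and Hspb1 at 1.06, and the mean itself lay 0.60 from a flat profile.

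The pair was also detected in a larger share of KO cells on average, with no test run. With every cell thinned to 1000 UMIs and shallower cells left out, Hspa1a was seen in 33.1% ± 11.8 of endocardial-like cells in KO and 12.6% ± 13.4 in WT libraries, from 2054 KO and 1623 WT cells. Hspa1b was seen in 22.4% ± 10.4 in KO and 6.83% ± 6.79 in WT libraries. Over the whole heart Hspa1a was seen in 11.8% ± 3.85 in KO and 4.87% ± 4.38 in WT libraries. Without thinning, Hspa1a was seen in 33.5% of 3338 KO and 14.6% of 2217 WT endocardial-like cells, at a median of 1358 and 1807 UMIs. Erythroid-like and neural cells were set beside these as a floor, though whether they lack Hspa1a was not tested. In erythroid-like cells Hspa1a was seen in 19.7% of 61 KO and 5.56% of 378 WT cells, at 2438 and 2050 UMIs. In the neural class it was seen in 6.49% of 154 KO and 3.03% of 99 WT cells, at 1635 and 1948 UMIs. The share in KO cardiomyocyte-like cells, 9.07% without thinning, lay below that of KO erythroid-like cells and above that of the KO neural class. It is not read as expression. The same limit holds for the Hspa1a CPM of cardiomyocyte-like cells above, which also serve as the reference of its class differences.

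Cells in which Hspa1a was seen held Hspa1b more often. In cells thinned to 1000 UMIs, Hspa1b was seen in 25.7% ± 5.79 of Hspa1a-positive KO cells and 12.3% ± 10.6 of Hspa1a-positive WT cells, against 2.06% and 1.18% of Hspa1a-negative KO and WT cells. Hsph1 was seen in 25.7% ± 7.91 of KO and 9.14% ± 7.44 of WT cells with either HSP70 gene, and in 6.71% of KO and 5.47% of WT cells with neither. Dnajb1 was seen in 23.5% of KO and 17.3% of WT cells with either gene, and in 9.73% of KO and 9.38% of WT cells with neither. Cells of a library share its free RNA, and these shares mix cell classes of unequal level.

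Immediate early genes, which also respond to cell dissociation, were higher on average in KO libraries too. The summed level of the 25 genes of the list in the table was 9072 ± 2454 CPM in KO and 6699 ± 1537 CPM in WT libraries in endocardial-like cells, 9844 ± 3311 and 7143 ± 1984 CPM in KO and WT valve interstitial-like cells, 3782 ± 856 and 3010 ± 586 CPM in KO and WT cardiomyocyte-like cells, and 5891 ± 2262 and 5624 ± 1301 CPM in KO and WT fibroblast-like cells. In fibroblast-like cells the medians ran the other way, at 5296 CPM in KO and 6250 CPM in WT libraries, and KO replicate 4 had 11222 CPM. In all kept cells together the summed level was 6464 ± 1378 CPM (5042 to 8842) in KO and 5230 ± 1089 CPM (3712 to 6434) in WT libraries. The mitochondrially encoded share was 2.66% ± 0.34 in KO and 3.01% ± 1.17 in WT libraries. Their part in the member values was not tested. The genes whose centred levels over the 15 libraries lay nearest to the mean of the inducible members were Ctgf (0.29 log2 units root mean square), Cyr61 (0.30), F3, Arid5b and Mylip (0.38 each), of 13435 genes with a median of 0.61. Nearest to the mean of the constitutive members were Cdc45, 2810408I11Rik and Tubb4b (0.11 each) and Hspa14 and Npm1 (0.12 each), with a median of 0.31.

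Other genes of protein quality control were read from 7 lists, chosen with earlier results of these data known. They are heat shock factors and stress-induced companions (21 tested), constitutive cytosolic HSP70, HSP90 and HSP110 proteins with their co-chaperones (28), small heat shock proteins (6), mitochondrial chaperones (10), endoplasmic reticulum (ER) chaperones (14), the chaperonin TRiC/CCT with prefoldin (13), which folds actin and tubulin, and immediate early genes (24). Over all kept cells edgeR called 0 genes of each list between KO and WT. In that order, 5, 8, 0, 1, 7, 1 and 9 of them had an unadjusted p under 0.05, and DESeq2 called 4, 1, 0, 0, 4, 0 and 4. The median log2 fold changes were 0.01, 0.09, -0.03, 0.00, 0.19, 0.02 and 0.23, against -0.02 over all genes tested. The largest values among the companions were those of the stress-induced Atf3 (0.61, edgeR adjusted p = 0.0796), which is on the immediate early list too, and Gadd45b (0.48). Among ER chaperones they were Dnajb9 (0.52, edgeR adjusted p = 0.0531) and Hspa5, the ER HSP70 BiP (0.49, edgeR adjusted p = 0.0639). Fkbp5 (0.57) and Hspa12a (0.37) led the cytosolic list, Hspb2 (-0.17) and Hspb7 (-0.16) the small heat shock proteins, Lonp1 (0.31) and Grpel1 (-0.19) the mitochondrial list and Pfdn2 (-0.20) and Pfdn4 (0.20) the chaperonin list. Nfkbiz (0.68, edgeR adjusted p = 0.119) led the immediate early genes.

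In cardiomyocyte-like cells, where Hspb8 rose, edgeR called 4 of 14 ER chaperones, all higher in KO. They were Hspa5 (log2 0.57, edgeR adjusted p = 0.0174), Hsp90b1, the ER HSP90 (0.47), Hyou1, the ER HSP110 (0.75), and the BiP partner Dnajb9 (0.52). The companions had 4 of 21 called, all higher, which were Atf3 (0.90, edgeR adjusted p = 0.0129), Gadd45b (0.58), the HSP40 protein Dnajb4 (0.52) and Stip1, which passes clients between HSP70 and HSP90 (0.47). The immediate early genes had 4 of 24 called, all higher, Atf3, Nr4a1 (0.86), Nfkbiz (0.78) and Ier3 (0.71). The other 4 lists had 0 called by edgeR there. At an unadjusted p under 0.05 they held 8 cytosolic, 0 small heat shock, 2 mitochondrial and 0 chaperonin genes, and DESeq2 called 1 cytosolic gene. In endocardial-like cells 3 of 23 immediate early genes passed, Rhob (1.29, edgeR adjusted p = 0.0104), Nfkbiz (0.96) and Jun (0.76), all higher in KO. No gene of the other 6 lists passed edgeR's test there, and DESeq2 called 1 companion and 1 ER chaperone, with 5 genes of each of these lists, 7 cytosolic, 1 small heat shock, 1 mitochondrial and 3 chaperonin genes at an unadjusted p under 0.05 in edgeR. Of the 7 lists edgeR called 0 genes in valve interstitial-like cells, with 5 companions, 3 cytosolic, 0 small heat shock, 1 mitochondrial, 5 ER, 0 chaperonin and 7 immediate early genes at an unadjusted p under 0.05, and DESeq2 called 3 ER chaperones. In fibroblast-like cells edgeR also called 0, with 4, 3, 2, 1, 5, 0 and 3 genes of the lists in that order at an unadjusted p under 0.05, and DESeq2 called 1 companion and 1 ER chaperone.

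The alleles were compared within the 8 KO libraries, which share a flow cell, 4 with tm4b and 4 with tm4a. Over all kept cells 3 members fell in tm4b hearts, Hspa8, Hsp90aa1 and Hspe1, where 2071 of 13531 genes passed (15.3%). Hspa8 had 912, 782, 845 and 1021 CPM in tm4b replicates 5 to 8, against 1272, 1082, 1261 and 1268 CPM in tm4a replicates 1 to 4. The 4 tm4b values were all below the 4 tm4a values, and the log2 fold change was -0.57 (SE 0.10, edgeR adjusted p = 0.00703). Hsp90aa1 had 483, 353, 500.3 and 482 CPM in tm4b, against 555, 653, 615 and 558 CPM in tm4a libraries. These groups did not overlap either, at a log2 fold change of -0.50 (SE 0.11, edgeR adjusted p = 0.0138). Both calls held when any 1 of the 8 libraries was left out. Hspe1 had 511, 494, 498 and 497 CPM in tm4b, against 611, 567, 637 and 605 CPM in tm4a libraries (log2 -0.39, SE 0.08, edgeR adjusted p = 0.0116), and lost its call without KO replicate 7. Over all genes, 23.0% did not overlap between the alleles.

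Hspa8 in WT libraries lay between 511 and 1320 CPM, a span that holds every tm4b and tm4a library. The inducible HSP70 genes did not pass between the alleles. Hspa1a averaged 259 ± 113 CPM in tm4b and 243 ± 105 CPM in tm4a libraries (log2 -0.02, edgeR adjusted p = 0.973). Hspb1 averaged 123 ± 20.4 CPM in tm4b and 71.5 ± 55.5 CPM in tm4a libraries (log2 0.68, edgeR adjusted p = 0.245), where tm4a replicate 2 had 153 CPM and the other 3 had 29.3 to 58.4. Leaving out 1 library at a time, Hspb1 was past the threshold in 1 of 8 cases, without that replicate, where its log2 fold change was 1.37.

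In cardiomyocyte-like cells 4 members passed, at 1399 of 11227 genes (12.5%). Hspa8 averaged 751 ± 47.3 CPM in tm4b and 1001 ± 104 CPM in tm4a libraries (log2 -0.52, edgeR adjusted p = 0.00316), Hsp90aa1 445 ± 49.0 and 546 ± 62.4 CPM in tm4b and tm4a (log2 -0.40, edgeR adjusted p = 0.0158), and Hspe1 527 ± 12.8 and 613 ± 28.8 CPM in tm4b and tm4a (log2 -0.33, edgeR adjusted p = 0.0126). Hsph1 ran the other way, with 63.9, 53.1, 70.0 and 71.8 CPM in tm4b against 48.5, 36.5, 34.0 and 48.4 CPM in tm4a libraries. The groups did not overlap, where 19.6% of genes in this class did not, at a log2 fold change of 0.50 (SE 0.14, edgeR adjusted p = 0.0260), and the call was lost without KO replicate 2, 3, 5, 7 or 8.

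In fibroblast-like cells the same 3 members fell, at 783 of 8901 genes (8.8%). Hsp90aa1 averaged 461 ± 56.9 CPM in tm4b and 657 ± 31.0 CPM in tm4a libraries (log2 -0.59), Hspa8 895 ± 110 and 1296 ± 134 CPM in tm4b and tm4a (log2 -0.61, edgeR adjusted p = 0.00262 for both), and Hspe1 551 ± 48.4 and 682 ± 36.0 CPM in tm4b and tm4a (log2 -0.38, edgeR adjusted p = 0.0177). The Hspe1 call was lost without KO replicate 6, 7 or 8. In valve interstitial-like cells 1 member passed, at 324 of 7944 genes (4.08%). It was Hspb1, with 49.4, 54.3, 82.0 and 119 CPM in tm4b against 3.04, 41.6, 22.1 and 44.6 CPM in tm4a libraries, and no overlap, as for 12.9% of genes in this class (log2 1.49, SE 0.41, edgeR adjusted p = 0.0463). The call was lost without KO replicate 1, 3, 5, 7 or 8. In endocardial-like cells none passed edgeR's test, at 50 of 8558 genes (0.584%). Of them 4 had an unadjusted p under 0.05 in edgeR, and DESeq2 called 1, Hspa8, lower in tm4b (log2 -0.62, DESeq2 adjusted p = 0.0036). Hspa8 had 1297, 913, 1222 and 1456 CPM there in tm4b against 1759, 1607, 2000 and 1924 CPM in tm4a libraries (log2 -0.60, edgeR adjusted p = 0.0585), with no overlap. Hsp90aa1 (log2 -0.59) and Hspe1 (log2 -0.42) did not overlap either, where 9.15% of genes in this class did not.

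Genes of the other lists were lower in tm4b hearts more often than higher among those that passed. Over all kept cells 51.9% of all genes tested lay above 0. The direction of all genes called is not given here, so these counts have no such share beside them. In the sum over all kept cells, 5 of 6 small heat shock proteins fell, with a list median of -0.38 against 0.02 over all genes tested. They were Hspb2 (log2 -0.50), Cryab, the lens and muscle alpha B-crystallin (-0.46), Hspb3 (-0.39), Hspb6 (-0.36) and Hspb7 (-0.36). Within cardiomyocyte-like cells 2 of these 6 genes fell, with a list median of -0.25 against 0.01 over all genes tested there. Of the 21 companions 7 fell, among them the ubiquitin precursor Ubb (-0.62, edgeR adjusted p = 0.00448), the HSP90 activator Ahsa1 (-0.61), metallothionein Mt1 (-0.69), heme oxygenase Hmox1 (-0.60), the collagen chaperone Serpinh1 (-0.34) and Chordc1 (-0.31). Of 10 mitochondrial chaperones 4 fell, Grpel2 (-0.52), Grpel1 (-0.51), Trap1 (-0.37) and Clpp (-0.37). Of 13 chaperonin and prefoldin genes 3 fell, Pfdn2 (-0.46), Pfdn1 (-0.44) and Cct7 (-0.39), as did 2 of 14 ER chaperones, Manf (-0.42) and Pdia6 (-0.28), and 1 of 24 immediate early genes, Ier3 (-0.50). With 15.3% of all genes called, the counts of these last 2 lists do not exceed the share over all genes. The cytosolic list was split, with Hspa4, an HSP110 relative (0.53), and Bag4 (0.53) higher and Hspbp1 (-0.49), Bag6 (-0.37), Hspa14 (-0.25) and Sgta (-0.24) lower, of 28.

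By class, Ubb fell in tm4b cardiomyocyte-like (-0.58), valve interstitial-like (-0.59) and fibroblast-like cells (-0.76, edgeR adjusted p = 9.81e-05), Serpinh1 fell in the same 3 classes (-0.36, -0.49 and -0.46), and Hspa4 rose in them (0.56, 0.55 and 0.69). In cardiomyocyte-like cells the metallothioneins Mt1 (-0.57) and Mt2 (-0.43) fell with the HSP90 partners Ahsa1 (-0.54) and Chordc1 (-0.33), and so did the HSP70 co-factors Hspbp1 (-0.38) and Sgta (-0.29). The small heat shock proteins Hspb2 (-0.35) and Cryab (-0.30) fell there, as did the mitochondrial import co-chaperones Grpel2 (-0.66) and Grpel1 (-0.44), the mitochondrial HSP90 Trap1 (-0.32) and the protease subunit Clpp (-0.33). Pdia6 (-0.31) and Manf (-0.47) of the ER, Pfdn2 (-0.48), Pfdn1 (-0.37) and Cct7 (-0.32) of the chaperonin list, and the immediate early Ier3 (-0.49) and Zfp36 (-0.50) were lower too, while Dnaja2 (0.28) and the mitochondrial protease Lonp1 (0.50) rose. In fibroblast-like cells others that fell were Dnaja1 (-0.50), Ahsa1 (-0.50), Mt1 (-0.84), Bag6 (-0.47), Hspa5 (-0.43), Manf (-0.46), Pdia6 (-0.30), Pfdn1 (-0.49), Pfdn2 (-0.48) and Cct7 (-0.40). Among valve interstitial-like cells Clpp (-0.67) fell, and Lonp1 (0.84) and Jun (0.95) rose. In endocardial-like cells 1 gene of the 7 lists passed edgeR's test, Zfp36 (-1.02, edgeR adjusted p = 0.0367), while DESeq2 called 5 companions and 2 immediate early genes.

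The allele calls depend on which libraries the spread is taken from. In a fit over all 15 libraries, where the WT libraries enter the spread too, none of the members passed edgeR's test in any of the 5 cell sets, and over all kept cells 2 of 13920 genes did, with 2376 at an unadjusted p under 0.05. The log2 fold changes of Hspa8 (-0.57), Hsp90aa1 (-0.49) and Hspe1 (-0.38) hardly moved. Every tm4b library came from litter 7 and every tm4a library from litter 5 or 6, so allele and litter cannot be told apart. Immediate early genes summed to 6615 ± 1155 CPM in tm4b and 6313 ± 1743 CPM in tm4a libraries. Their part in the allele values was not tested.

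**Figure D5:**
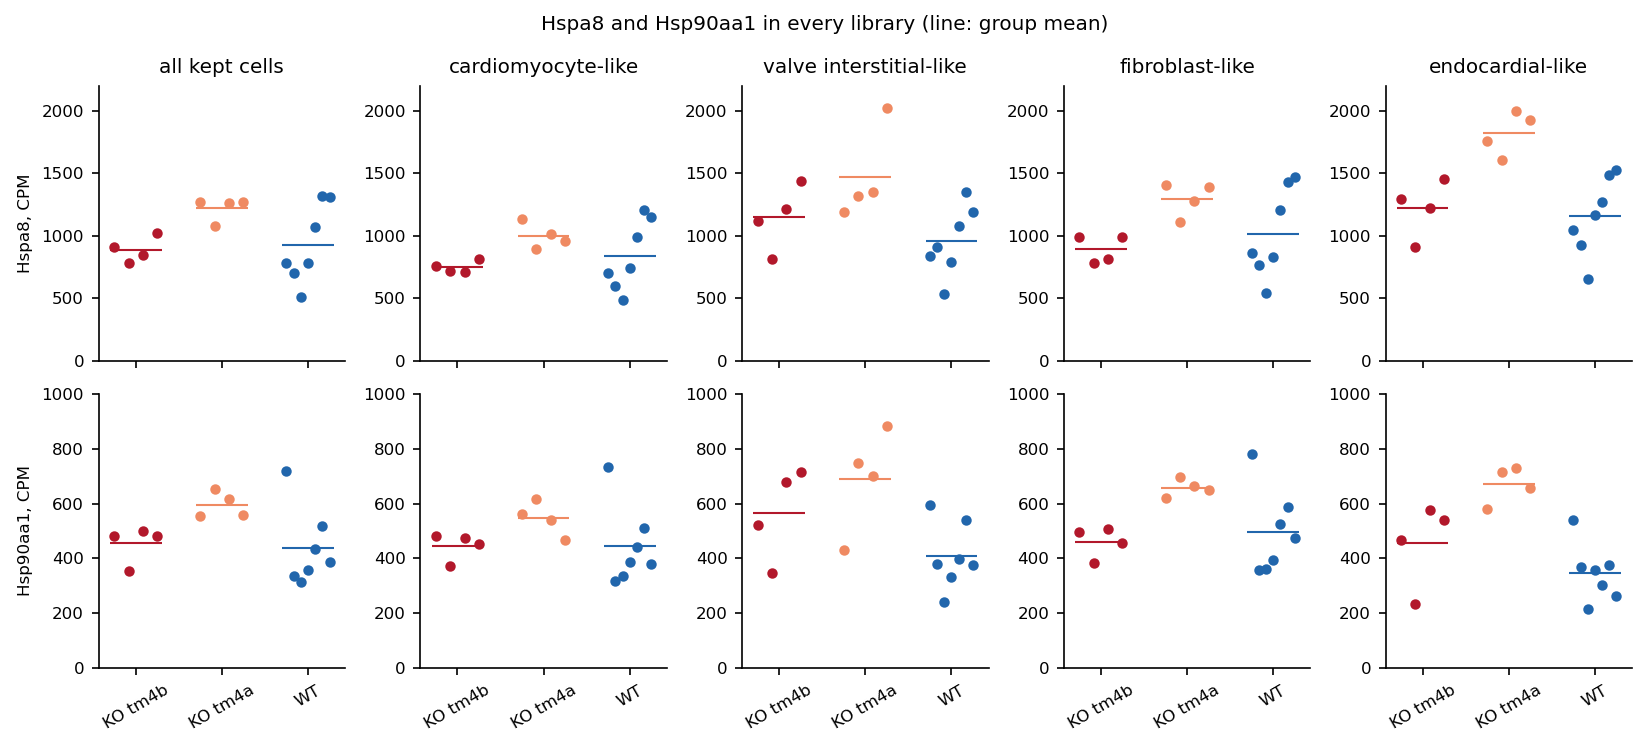
Levels of Hspa8 and Hsp90aa1 in each library (vertical axes, CPM) in all kept cells and 4 cell classes, for KO tm4b, KO tm4a and WT from left to right. Points are libraries and lines are group means. Over all kept cells the tm4b libraries lie at 782 to 1021 CPM of Hspa8, below the tm4a libraries at 1082 to 1272, and the WT libraries span 511 to 1320.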

How the data were processed

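The authors deposited UMI counts per gene and barcode as whole numbers that were not normalized. The submitters' processing notes name bcl2fastq 2.17, Seurat 2.1 and the mm10 build, and which aligner ran was not given in the sources used here. Every library column had a sample, and 0 columns were set aside. Replicate numbers follow the sample titles, since the description of WT replicate 4 carries the number of replicate 3.

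Cells with at least 300 detected genes were kept and called doublets were removed. Scrublet in scanpy 1.11.5 called 124 of 50899 cells (0.244%), so doublets were largely not recognised, and removing the 5% of cells with the highest scores was an alternative. Cells were clustered on 2000 variable genes without the 10 members (30 principal components, 20 neighbours, Leiden resolution 1.0 in leidenalg 0.10.2). A cluster was named "X-like" from marker lists, and 2443 cells stayed unnamed.

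UMI counts were summed per library and class, with at least 10 cells each, and tested with edgeR 4.0.16 (quasi-likelihood, TMM, filterByExpr) in R 4.3.3. Benjamini-Hochberg adjustment ran over all genes tested, with a threshold of 0.05. CPM is per 1000000 UMIs of the summed cells. DESeq2 1.42.0 was an alternative. On simulated counts made for KO over WT, with 100 changed genes of each size among 13445, the edgeR test recovered 30% of genes changed by 0.5 and 99% of genes changed by 1 on the log2 scale, and for tm4b over tm4a, among 13531 genes, 23% and 94%. The changed genes were drawn from well-counted genes of the sums over all kept cells, and no litter effect was simulated. These shares therefore do not carry over to class sums or to genes of few UMIs.

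The members and lists were chosen with earlier results of these data known. All 10 members are named. Of each list, every called gene is named, except 1 that is not reported here, and otherwise the 2 with the largest absolute log2 fold change between KO and WT over all kept cells. The 5 genes nearest to the mean of the inducible and of the constitutive members are named too.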

Additional observations from a re-analysis of the deposited data

Results flagged for a closer look

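Of 200 groups of 4 to 8 libraries examined, 13 held a library far from the others, where chance alone flags about 1 in 20. WT replicate 2 stood apart in valve interstitial-like cells for 3 members, with 491 CPM of Hspa1a (next highest WT library 57.6), 249 CPM of Dnajb1 (128) and 152 CPM of Hsph1 (96.5), and in endocardial-like cells with 79.5 CPM of Hspb1 (36.7). WT replicate 1 had 53.8 CPM of Hspa1b in cardiomyocyte-like cells (22.1) and 369 CPM in endocardial-like cells (160). Both come from litter 1.

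Among KO libraries, replicate 1 had 1024 CPM of Hspd1 in cardiomyocyte-like cells (next highest 836) and 666 CPM in fibroblast-like cells (next highest tm4a library 572). KO replicate 2 had 1082 CPM of Hspa8 over all kept cells (next lowest tm4a library 1261), KO replicate 3 had 792 CPM of Hspe1 in endocardial-like cells (next highest 579), and KO replicate 4 had 278 CPM of Dnajb1 in fibroblast-like cells (148) and 273 CPM of Hspd1 in endocardial-like cells (next lowest 373). KO replicate 6 had 353 CPM of Hsp90aa1 over all kept cells (next lowest tm4b library 482).

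The KO minus WT difference differed between a class and cardiomyocyte-like cells in 15 of 30 exact permutation tests, on log2(CPM + 5). These were run on the members only, so the share over all genes is not known. In endocardial-like cells these were Hspb8 at -0.70, Hspa8 at 0.29, Hspd1 at 0.40, Hsp90aa1 at 0.48, Hspe1 at 0.50, Hspb1 at 1.504, Hspa1a at 1.77 and Hspa1b at 2.44. In valve interstitial-like cells they were Hspb8 at -0.49, Hspe1 at 0.33, Hspb1 at 1.09, Hsph1 at 1.13 and Hspa1b at 1.63, and in fibroblast-like cells Hspb8 at -0.68 and Hsph1 at 0.47. None passed without KO replicate 3, 4 or 8. Hspb8 in valve interstitial-like and in fibroblast-like cells did not pass with a pseudocount of 1 CPM.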

How the results depend on the processing

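Of the 10 members, 1, 1, 1, 0 and 0 passed between KO and WT over all kept, cardiomyocyte-like, valve interstitial-like, fibroblast-like and endocardial-like cells. In the same order, none passed in any with a replicate block, with counts summed per litter, or with tm4a alone against WT. With tm4b alone 0, 0, 1, 0 and 0 passed. With flow cell as a covariate, WT replicate 5 is the WT library beside the KO libraries, and no count is given. Without WT replicates 1 to 4 no count is given either, since their levels were known from earlier results when that setting was chosen. DESeq2 gave 2, 1, 1, 1 and 1, no low-count filter 1, 1, 3, 0 and 1, and at least 500 genes per cell 1, 1, 0, 0 and 0. Leaving out 1 library gave 0 to 2, 1 to 1, 0 to 2, 0 to 1 and 0 to 2. Size factors (RLE), kept doublets, removed high doublet scores, clustering with the members and a Leiden resolution of 1.5 left these counts as they were.

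Between tm4b and tm4a 3, 4, 1, 3 and 0 members passed. All 15 libraries in 1 fit gave 0 in each. DESeq2 gave 5, 4, 0, 5 and 1, no low-count filter 3, 4, 5, 5 and 3, and at least 500 genes per cell 3, 4, 1, 4 and 1. In valve interstitial-like cells 0 passed with called doublets kept, with the highest doublet scores removed and with clustering on the members. Leaving out 1 library gave 2 to 4, 2 to 5, 0 to 2, 2 to 4 and 0 to 1. No log2 fold change changed sign while past the threshold.

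Of the 30 class differences, 15 passed, 13 with a pseudocount of 1 CPM, 0 on litter means, 0 without WT replicates 1 to 4 (both chosen after seeing the data), and 0 to 18 without 1 library. The replicate numbers did not pair the libraries, with correlations of same-numbered deviations of -0.47 to 0.097 over 7 pairs. The cause of each change was not tested, beyond the smaller number of libraries or litters in some settings.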

Other observations

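At a Leiden resolution of 1.5, the endocardial-like cells held a cluster of 1932 cells with Hspa1b among its 10 leading genes, although the members had been left out of the clustering. It held 31.4% to 47.0% of the endocardial-like cells of KO libraries and 20.2% to 41.0% of those of WT libraries, and its median of 636 UMIs per cell was 0.411 of that of its libraries.

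In macrophage-like cells, a class of 50 to 161 cells per library with no test here, Hspa1a averaged 363 ± 119 CPM in KO and 109 ± 54.4 CPM in WT libraries. In valve endothelial-like cells Hspa1a averaged 471 ± 251 CPM in KO and 181 ± 177 CPM in WT libraries, and Hsph1 245 ± 123 CPM in KO and 111 ± 40.9 CPM in WT libraries.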
